A study of Mus musculus with 4 samples.

Results

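The epidermal differentiation complex is a cluster of genes whose products build the outer, cornified layers of the epidermis. Its members were taken as every row of the array whose annotation gives a single gene symbol of the Sprr, Lce or S100a families, or the symbol of Ivl, Lor, Flg, Flg2, Hrnr, Rptn, Tchh, Tchhl1, Crnn or Crct1. The rule itself names genes without using a measured value, but it was set with earlier results of these data known. A gene with several rows is represented by the row with the highest mean. This gave 56 genes of the 22180 tested, namely 12 Sprr genes, 18 Lce genes, 16 S100a genes, 7 fused-type S100 genes and the envelope genes Ivl, Lor and Crct1. RefSeq's gene annotation of GRCm38.p6 places 55 of the 56 on mouse chromosome 3 and the pseudogene S100a11-ps on chromosome 12. It lists 3 members as pseudogenes, the other two being Sprr2g and Sprr2j-ps among the Sprr2 genes.

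Keratinocytes of the basal layer stop dividing, move outwards and replace their plasma membrane with the cornified envelope, a shell of proteins crosslinked by transglutaminases. Involucrin (Ivl) is an early scaffold of that shell, loricrin (Lor) its main late component, the small proline-rich (Sprr) proteins act as crossbridges, and the late cornified envelope (Lce) proteins are added last. The fused-type S100 proteins, such as filaggrin (Flg), join a calcium-binding S100 domain to long repeats and bind keratin filaments or the envelope. The S100a genes encode small calcium-binding proteins, several of which are secreted as danger signals.

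The arrays compared Glut1-deficient keratinocytes, from Glut1_fl/fl mice carrying K14 Cre, with wild-type (WT) keratinocytes from Glut1_fl/fl mice, in which the floxed alleles are not recombined. Glut1, encoded by Slc2a1, carries glucose across the plasma membrane, and the comparison asks what its loss does to keratinocyte transcription. All mice were C57BL/6J and 1 week old, with 4 per genotype. Cells grew in a keratinocyte medium with 0.05 mM calcium chloride, a low concentration at which mouse keratinocytes are usually kept from differentiating, and with EGF at 5 ng/ml. They were reseeded after 3 days and taken 1 day after that. Each array holds the pooled cells of 2 plates, and each genotype has 2 arrays. Lysates held 1000000 Glut1-deficient cells against 1500000 WT cells. The keratin 14 promoter drives Cre in keratinocytes, so other cells in the cultures would keep Glut1.

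Values are log2 intensities, and a difference of 1 is a factor of 2. Array medians lay between 4.07 and 4.11, and precision is limited by the small number of arrays. The brighter row for Slc2a1 read 11.01 and 11.01 on the Glut1-deficient arrays, against 11.13 and 11.05 on the WT arrays. Its log2 fold change was -0.07 (95% interval -0.30 to 0.15; limma adjusted p = 0.675). Which exons were deleted and where the probes lie is not given in the sources used here, so this row does not check the labels. Of 11 tested keratinocyte markers, 10 were above the median level of all genes, with Krt14 at 12.15 and 12.21 on the Glut1-deficient arrays against 12.56 and 12.54 on the WT arrays. Summed linear intensities of 14 fibroblast markers were 1670 and 1088 on the Glut1-deficient arrays against 766 and 712 on the WT arrays, and those of 9 melanocyte markers were 997 and 1069 on the Glut1-deficient arrays against 487 and 392 on the WT arrays. The Langerhans cell, neutrophil and T cell lists had 0 markers above the median level, and with the endothelial and inner root sheath lists they had 0 of 36 tested genes past the test in limma (7 at unadjusted p under 0.05).

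The members that passed the test went both ways. Of the 56 members, 5 fell, 2 rose and 49 did not pass over all genes (limma, Benjamini-Hochberg adjusted p under 0.05), beside 1.05% of all genes tested that fell, 1.79% that rose and 2.84% in either direction. Sprr2b, Sprr2d, Ivl, S100a8 and S100a9 fell, by 0.92 to 1.60 on the log2 scale, and Crct1 and Lce1b rose by 1.04 and 0.73. At unadjusted p under 0.05 there were 19 of the 56 members and 4923 of the 22180 genes in limma. The median log2 fold change was 0.0015 over the members and -0.0074 over all genes, with 28 members positive and 28 negative. On single arrays, 20 members had both Glut1-deficient values above both WT values, against 25.5% of all genes. Another 20 had both below, against 27.7% of all genes, and 53.2% of all genes did not overlap in either direction. The other 16 of the 56 members overlapped, as did 10386 of the 22180 genes. In bulk RNA such as this, fewer differentiated cells and less RNA per cell cannot be told apart.

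With any 1 array left out, 0 of the 56 members passed in limma (13 to 18 at unadjusted p under 0.05), as did 0 of the 22180 genes (2948 to 4627 at unadjusted p under 0.05), while the 7 members kept their signs. With a variance that followed intensity, 9 members fell and 6 rose, beside 12.0% of all genes called in either direction, and the added members are named with their families.

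**Figure D1:**
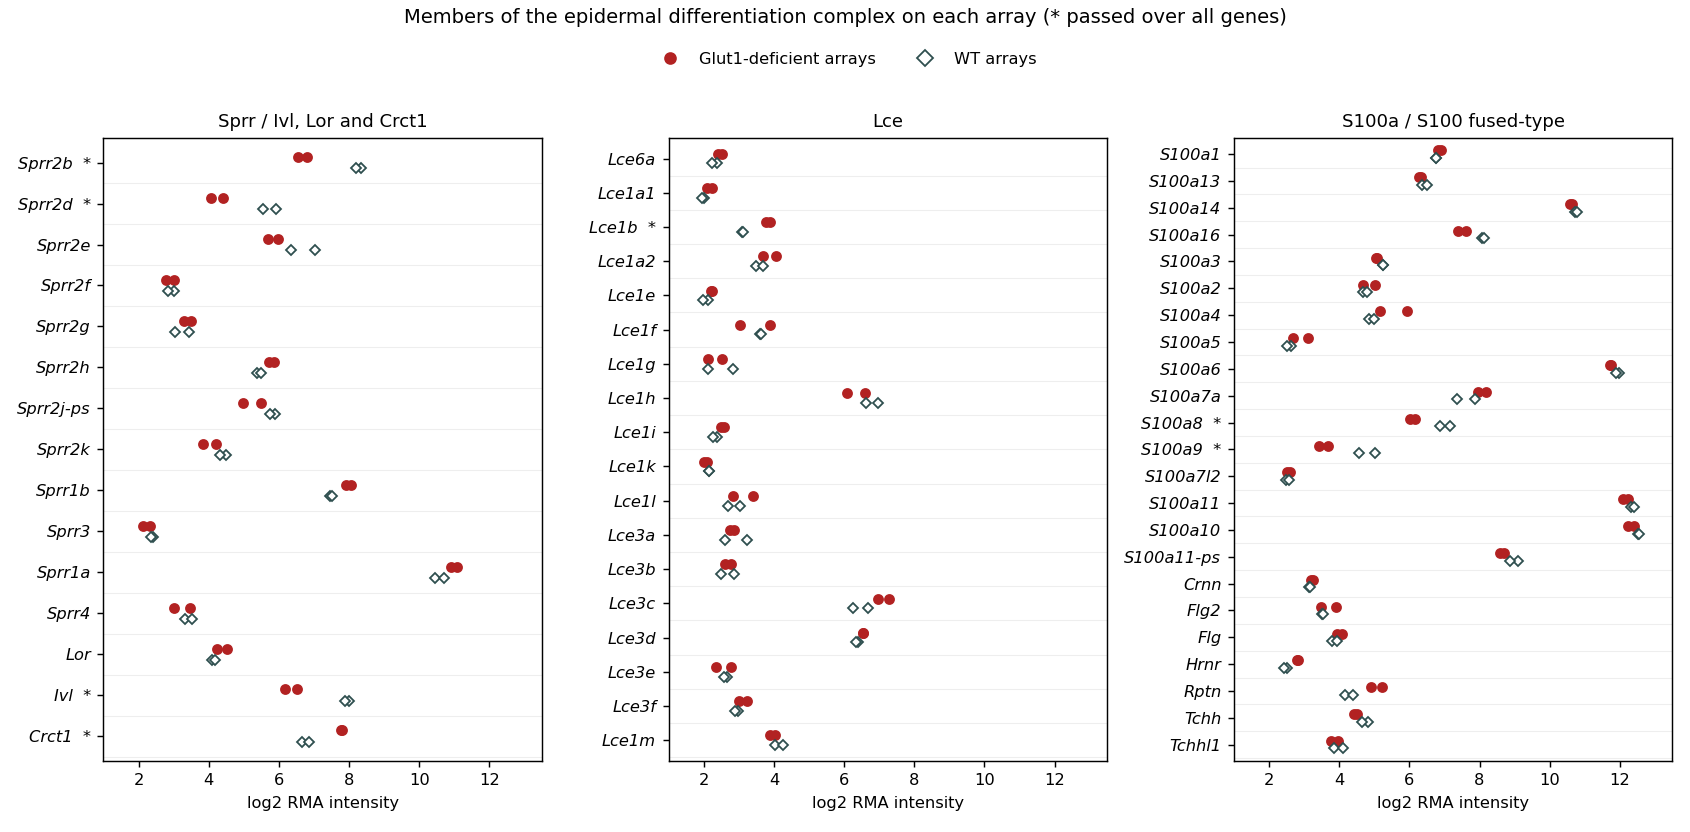
Log2 intensity of each of the 56 members on the 2 Glut1-deficient arrays (red circles) and the 2 WT arrays (open diamonds), 1 row per gene, by family. Asterisks mark the 7 members that passed over all genes. Sprr2b, Sprr2d, Ivl, S100a8 and S100a9 lie left of their WT values, and Crct1 and Lce1b lie right of theirs.

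Involucrin fell. Ivl read 6.19 and 6.53 on the Glut1-deficient arrays, against 7.99 and 7.88 on the WT arrays. The groups did not overlap, and both Glut1-deficient values lay more than 1 log2 unit below both WT values. The mean was 6.36 ± 0.24 on Glut1-deficient arrays and 7.94 ± 0.076 on WT arrays (SD, n = 2 each), 2.99-fold lower, with a 95% interval of the log2 fold change from -1.94 to -1.22 (limma adjusted p = 0.0208). Loricrin, by contrast, was dim in both genotypes, at 4.23 and 4.52 on the Glut1-deficient arrays against 4.09 and 4.19 on the WT arrays, below the median level of all genes (4.76). Its log2 fold change (0.24) did not pass (95% interval -0.09 to 0.56) and is the median of Ivl, Lor and Crct1, which is -0.27 when Lor is left out by a filter on dim genes.

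Crct1, a small cysteine-rich gene of the complex that lies between Lce3f and Lce1m in the gene order, rose. It read 7.80 and 7.79 on the Glut1-deficient arrays, against 6.65 and 6.86 on the WT arrays. The 2 Glut1-deficient values were nearly equal and stood above both WT values. The rise was 2.05-fold (95% interval of the log2 fold change 0.76 to 1.31; limma adjusted p = 0.0249).

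The Ivl promoter is shown because Ivl fell and its window, like those of most Sprr genes below, holds a match to the AP-1 motif TGANTCA. This pattern, with any base at N, includes the binding sequence of Jun and Fos factors that is well known from the involucrin gene. Sequences are RefSeq windows on GRCm38.p6 from 250 bases before to 50 bases after the annotated start, written 5′ to 3′ along the gene, with matches to the AP-1 motif in capitals. The Ivl window is chr3:92573686-92573985 (minus strand), and its match begins at -116, counted from the start.
Ivl: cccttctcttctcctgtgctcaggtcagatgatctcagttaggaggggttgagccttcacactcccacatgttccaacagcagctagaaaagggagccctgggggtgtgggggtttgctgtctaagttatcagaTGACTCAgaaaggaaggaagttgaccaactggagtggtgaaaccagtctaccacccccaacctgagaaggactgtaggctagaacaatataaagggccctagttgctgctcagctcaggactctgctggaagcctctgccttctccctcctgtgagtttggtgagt

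In the Sprr family the genes that passed belonged to the Sprr2 group. Of 12 members, 2 fell, 0 rose and 10 did not pass, beside 1.05% of all genes that fell and 1.79% that rose. Their median log2 fold change was -0.18, with a range from -1.60 to 0.50. The genes that fell, Sprr2b and Sprr2d, stand first and second of the singly annotated Sprr2 genes in the order along the chromosome. Sprr1a, Sprr1b and Sprr2h had both Glut1-deficient arrays above both WT arrays but did not pass.

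Sprr2b had the largest fall of the 56 members. It read 6.53 and 6.81 on the Glut1-deficient arrays, against 8.34 and 8.20 on the WT arrays. The values were 6.67 ± 0.19 on Glut1-deficient arrays and 8.27 ± 0.099 on WT arrays (SD, n = 2 each), 3.03-fold lower (limma adjusted p = 0.0175). The 2 groups stood more than 1 log2 unit apart. Sprr2d read 4.40 and 4.06 on the Glut1-deficient arrays, against 5.56 and 5.93 on the WT arrays, 2.86-fold lower (95% interval of the log2 fold change -1.98 to -1.05; limma adjusted p = 0.0318). It again showed no overlap, although its Glut1-deficient values lay below the median level of all genes.

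Sprr2e, the next gene along, read 5.68 and 5.99 on the Glut1-deficient arrays, against 6.36 and 7.03 on the WT arrays. It lay lower without overlap, but the WT arrays differed by 0.67 and its log2 fold change (-0.86) did not pass (limma adjusted p = 0.141; 0.0479 when the variance followed intensity). The pseudogene Sprr2j-ps read 4.98 and 5.49 on the Glut1-deficient arrays against 5.89 and 5.75 on the WT arrays, and its log2 fold change of -0.59 ran from -0.84 to -0.33 with an array left out. Sprr2k read 3.84 and 4.19 on the Glut1-deficient arrays against 4.51 and 4.32 on the WT arrays, and its log2 fold change of -0.40 ran from -0.58 to -0.22. Both lay below WT without overlap and neither passed the test. Sprr2f and Sprr2g, at 2.78 to 3.48 on all 4 arrays, were dim and their groups overlapped.

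Sprr2h, of the same subfamily, lay above WT. It read 5.72 and 5.85 on the Glut1-deficient arrays, against 5.39 and 5.49 on the WT arrays, a difference of 0.34 log2 units that did not pass (95% interval 0.09 to 0.59; limma adjusted p = 0.142). Sprr1b read 7.91 and 8.04 on the Glut1-deficient arrays, against 7.45 and 7.51 on the WT arrays, a difference of 0.50 log2 units (limma adjusted p = 0.0695; 0.00955 when the variance followed intensity). Sprr1a read 10.90 and 11.07 on the Glut1-deficient arrays, against 10.46 and 10.70 on the WT arrays, with a difference of 0.40 log2 units (limma adjusted p = 0.158; 0.0298 when the variance followed intensity). All 3 stood above their WT values on both arrays. Sprr3, which belongs mainly to internal stratified epithelia, read 2.12 and 2.32 on the Glut1-deficient arrays against 2.42 and 2.37 on the WT arrays, and Sprr4 had a log2 fold change of -0.18. Both were dim on every array.

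Near-identical Sprr2 copies can share probes, and the array holds 5 rows annotated to several Sprr2 genes, which are not among the members. A pair of them had identical values, which leaves 4 distinct rows. In 3 of the 4 the Glut1-deficient arrays lay below the WT arrays. The first read 10.33 and 10.88 on the Glut1-deficient arrays against 11.96 and 11.95 on the WT arrays. It is annotated to Sprr2a1, Sprr2a2, Sprr2a3 and also Sprr2b, so it is not separate from that member. The second, annotated to Sprr2a1, Sprr2a2 and Sprr2a3, read 6.28 and 7.67 on the Glut1-deficient arrays against 9.18 and 9.20 on the WT arrays. A further one, the identical pair plotted as shared row 4, is annotated to the same Sprr2a genes. It read 7.68 and 8.62 on the Glut1-deficient arrays against 10.01 and 9.79 on the WT arrays. The log2 fold changes of these 3 rows were -1.35, -2.22 and -1.75, with limma adjusted p of 0.131, 0.183 and 0.164 over all 41345 rows. In that fit 0 of the 22180 rows that stand for a gene passed (3887 at unadjusted p under 0.05). In all 3, array 1 of the Glut1-deficient genotype lay further from WT than array 2. The remaining one, annotated to Sprr2e, Sprr2f and Sprr2i and plotted as shared row 3, was dim, with a log2 fold change of 0.05. Rows annotated to a single copy may also take up signal from near-identical neighbours, so values of single Sprr2, Lce1 and Lce3 genes are uncertain in this respect.

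**Figure D2:**
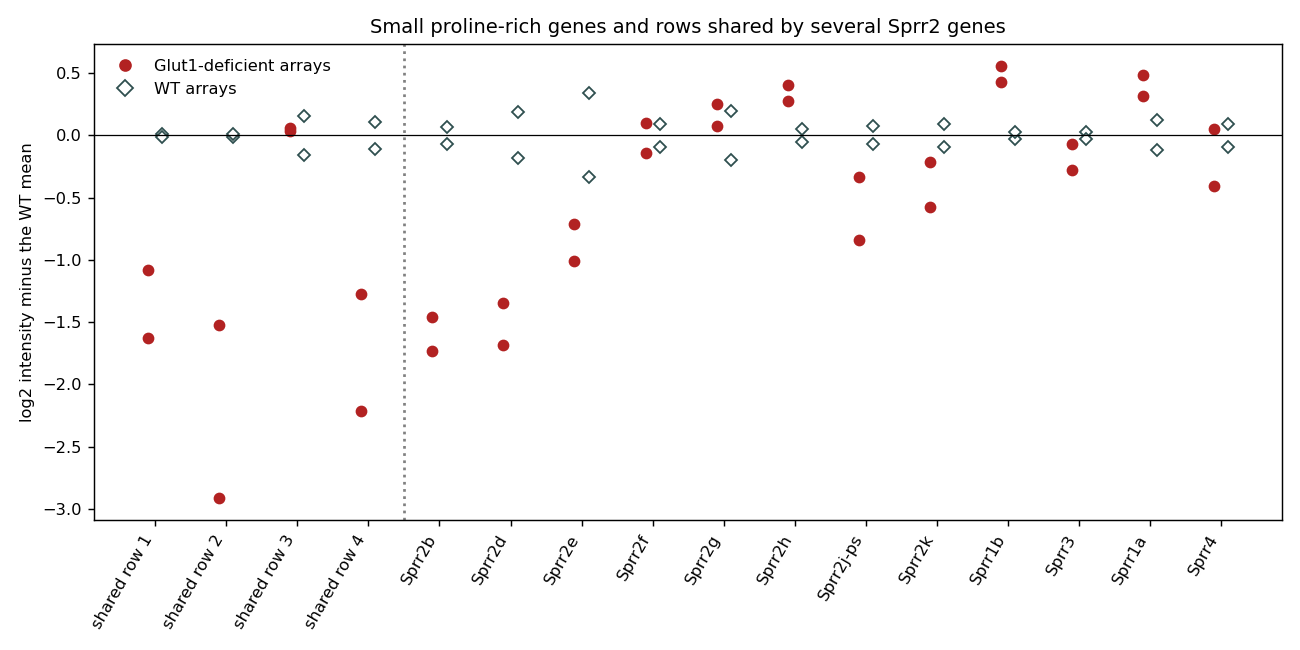
Log2 intensity minus the WT mean for the 4 distinct rows shared by several Sprr2 genes (left of the dotted line) and the 12 Sprr members in chromosome order, with 2 Glut1-deficient arrays (red circles) and 2 WT arrays (open diamonds) each. Shared rows 1, 2 and 4 and the members Sprr2b, Sprr2d and Sprr2e lie below their WT values, whereas Sprr1a, Sprr1b and Sprr2h lie above theirs.

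The promoters of Sprr2b and Sprr2d, which fell, and of Sprr2h and Sprr1b, which did not, are shown side by side because these relatives gave different calls. The windows are chr3:92316455-92316754 (plus strand), chr3:92338890-92339189 (plus strand), chr3:92385435-92385734 (plus strand) and chr3:92438730-92439029 (minus strand), with AP-1 matches again in capitals.
Sprr2b: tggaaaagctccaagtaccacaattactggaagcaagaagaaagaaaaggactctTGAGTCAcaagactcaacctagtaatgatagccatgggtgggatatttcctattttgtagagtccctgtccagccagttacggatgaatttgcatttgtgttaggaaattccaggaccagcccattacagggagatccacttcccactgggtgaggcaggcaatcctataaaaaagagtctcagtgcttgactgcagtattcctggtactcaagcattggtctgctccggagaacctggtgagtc
Sprr2d: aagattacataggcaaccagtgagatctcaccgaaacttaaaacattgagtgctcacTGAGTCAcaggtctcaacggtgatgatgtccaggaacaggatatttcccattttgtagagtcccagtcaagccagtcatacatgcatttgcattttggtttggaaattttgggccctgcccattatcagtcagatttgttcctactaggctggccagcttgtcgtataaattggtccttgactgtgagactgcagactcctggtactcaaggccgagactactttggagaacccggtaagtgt
Sprr2h: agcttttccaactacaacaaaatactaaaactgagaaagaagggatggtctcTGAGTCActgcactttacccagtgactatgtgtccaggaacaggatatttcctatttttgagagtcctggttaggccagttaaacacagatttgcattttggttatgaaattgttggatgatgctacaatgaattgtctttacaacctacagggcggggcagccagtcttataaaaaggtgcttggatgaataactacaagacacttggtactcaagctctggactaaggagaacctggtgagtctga
Sprr1b: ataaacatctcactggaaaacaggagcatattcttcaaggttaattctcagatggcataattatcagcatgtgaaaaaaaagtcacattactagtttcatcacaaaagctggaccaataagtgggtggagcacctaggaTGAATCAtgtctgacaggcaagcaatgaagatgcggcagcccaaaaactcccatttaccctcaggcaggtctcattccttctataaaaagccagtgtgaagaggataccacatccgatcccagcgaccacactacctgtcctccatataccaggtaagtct

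All 4 hold 1 match. It begins at -195, -193 and -198 from the start in Sprr2b, Sprr2d and Sprr2h, and at -111 in Sprr1b. In the Sprr2 windows it reads TGAGTCA and in the Sprr1b window TGAATCA. Sprr2e and Sprr2f carry it at -193 and -197, and Sprr2k carries a match at -196 and another at -182. A match at this place was present in Sprr2b and Sprr2d, which fell, and in Sprr2e, Sprr2f, Sprr2h and Sprr2k, which did not pass. Over the window, Sprr2b was 65.9% identical to Sprr2d and 64.6% to Sprr2h, Sprr2d was 89.1% identical to Sprr2e, and Sprr2h was 81.8% identical to Sprr2k in a global alignment. Sprr2h and Sprr2k, alike in sequence, had log2 fold changes of 0.34 and -0.40, and neither passed.

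Across families, windows were found for 48 of the 56 members, 52 in all since some genes have several starts. The AP-1 motif, which reads the same on both strands, was in 8 of 10 Sprr windows, 0 of 17 Lce windows and 3 of 16 S100a windows. It was also in 5 of 7 fused-type windows and both windows of Ivl and Lor, beside 7.81% of all 32851 windows of that length. The fused-type matches read TGAATCA or, in Rptn, TGATTCA, and that of Sprr1b reads TGAATCA, whereas that of Ivl reads TGACTCA. The pattern is wider than the binding sequence, so matches with A or T at N need not be Jun and Fos sites. The TATA box letters TATAAA, on either strand, were in 9 of 10 Sprr windows, 3 of 17 Lce windows and 13.6% of all windows. A Grainyhead-like motif, AACNNGTT, was in 3 of the 52 member windows (5.77%, against 4.20% of all). A KLF/Sp motif, CCNCNCCC, was in 13 of the 52, against 49.5% of all, and an ETS motif, AGGAAG, in 24 (46.2%, against 35.4%), on either strand and with matches of different motifs counted separately where they overlapped. Genes of a family arose by duplication, so their windows are not independent, and a match is a description of the letters only.

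In the Lce family, whose proteins reinforce the finished envelope, 0 of 18 members fell and 1 rose, while the other 17 did not pass. Over all genes, 1.05% fell and 1.79% rose. Of the 18, 15 were at or below the median level of all genes. The median log2 fold change was 0.15, with 11 members positive and 7 negative. Lce1b read 3.89 and 3.77 on the Glut1-deficient arrays, against 3.09 and 3.11 on the WT arrays. Both Glut1-deficient values stood above both WT values, a 1.66-fold rise (95% interval of the log2 fold change 0.49 to 0.96; limma adjusted p = 0.034), in a gene dim on every array. Its promoter, chr3:92656877-92657176 (minus strand), is shown as that of the riser in a family without an AP-1 match.
Lce1b: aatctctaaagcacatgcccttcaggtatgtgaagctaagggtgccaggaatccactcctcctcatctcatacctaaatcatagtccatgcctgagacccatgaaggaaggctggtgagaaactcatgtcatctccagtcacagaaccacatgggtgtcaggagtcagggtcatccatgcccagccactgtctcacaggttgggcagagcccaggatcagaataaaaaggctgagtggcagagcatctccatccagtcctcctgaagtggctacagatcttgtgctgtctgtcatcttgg

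The 3 Lce genes above the median level were Lce3c, Lce3d and Lce1h. Lce3c, of the Lce3 group that is linked to skin repair in humans, read 6.98 and 7.29 on the Glut1-deficient arrays, against 6.24 and 6.68 on the WT arrays. Its log2 fold change of 0.67, without overlap, did not pass (limma adjusted p = 0.137; 0.045 when the variance followed intensity). Lce3d read 6.54 and 6.53 on the Glut1-deficient arrays against 6.41 and 6.33 on the WT arrays, a log2 fold change of 0.17. Lce1h read 6.08 and 6.59 on the Glut1-deficient arrays, against 6.62 and 6.96 on the WT arrays. It was the Lce member with the lowest log2 fold change, -0.45, and did not pass (limma adjusted p = 0.292).

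The other 14 Lce genes read between 1.96 and 4.24 on the 4 arrays. Lce6a, Lce1a1, Lce1e, Lce1i and Lce3f stood above WT without overlap by 0.13 to 0.22, and Lce1k stood below by 0.10. Rows annotated to Lce1k together with Lce1c or Lce1d, not among the members, had log2 fold changes of 0.43 and -0.08. Lce1a2, Lce1f, Lce1g, Lce1l, Lce3a, Lce3b, Lce3e and Lce1m overlapped between the genotypes. Lce1f spread most, at 3.02 and 3.90 on the Glut1-deficient arrays against 3.59 and 3.62 on the WT arrays. Lce1m, the single member with a second row, had a log2 fold change of -0.18 in the row used and 0.10 in the dimmer one, which read 3.09 and 3.47 on the Glut1-deficient arrays against 3.14 and 3.23 on the WT arrays, so its rows disagreed in sign and neither passed.

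None of the 7 fused-type S100 genes passed in limma (3 at unadjusted p under 0.05, beside the 4923 of all 22180 genes), and all 7 had a mean at or below the median level of all genes. Filaggrin (Flg) read 3.94 and 4.07 on the Glut1-deficient arrays, against 3.78 and 3.95 on the WT arrays. Its groups overlapped slightly, with a log2 fold change of 0.14 (95% interval -0.14 to 0.41). Flg2 read 3.49 and 3.92 on the Glut1-deficient arrays against 3.52 and 3.55 on the WT arrays, which overlapped. Hornerin (Hrnr) read 2.79 and 2.83 on the Glut1-deficient arrays against 2.52 and 2.44 on the WT arrays, a log2 fold change of 0.33 without overlap. Both are filaggrin-like proteins of the cornified layer.

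Repetin (Rptn), an envelope precursor of the same type, had the largest log2 fold change of the 7. It read 5.21 and 4.92 on the Glut1-deficient arrays, against 4.16 and 4.40 on the WT arrays. The Glut1-deficient values stood clear of the WT values by 0.78 on average, which missed the threshold (limma adjusted p = 0.0675; 0.0243 when the variance followed intensity). Trichohyalin (Tchh), a protein of the inner root sheath of hair, read 4.42 and 4.50 on the Glut1-deficient arrays against 4.82 and 4.66 on the WT arrays, a log2 fold change of -0.28. Tchhl1 read 3.77 and 3.97 on the Glut1-deficient arrays against 3.84 and 4.10 on the WT arrays, and cornulin (Crnn) 3.25 and 3.19 on the Glut1-deficient arrays against 3.15 and 3.16 on the WT arrays. Neither passed.

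**Figure D3:**
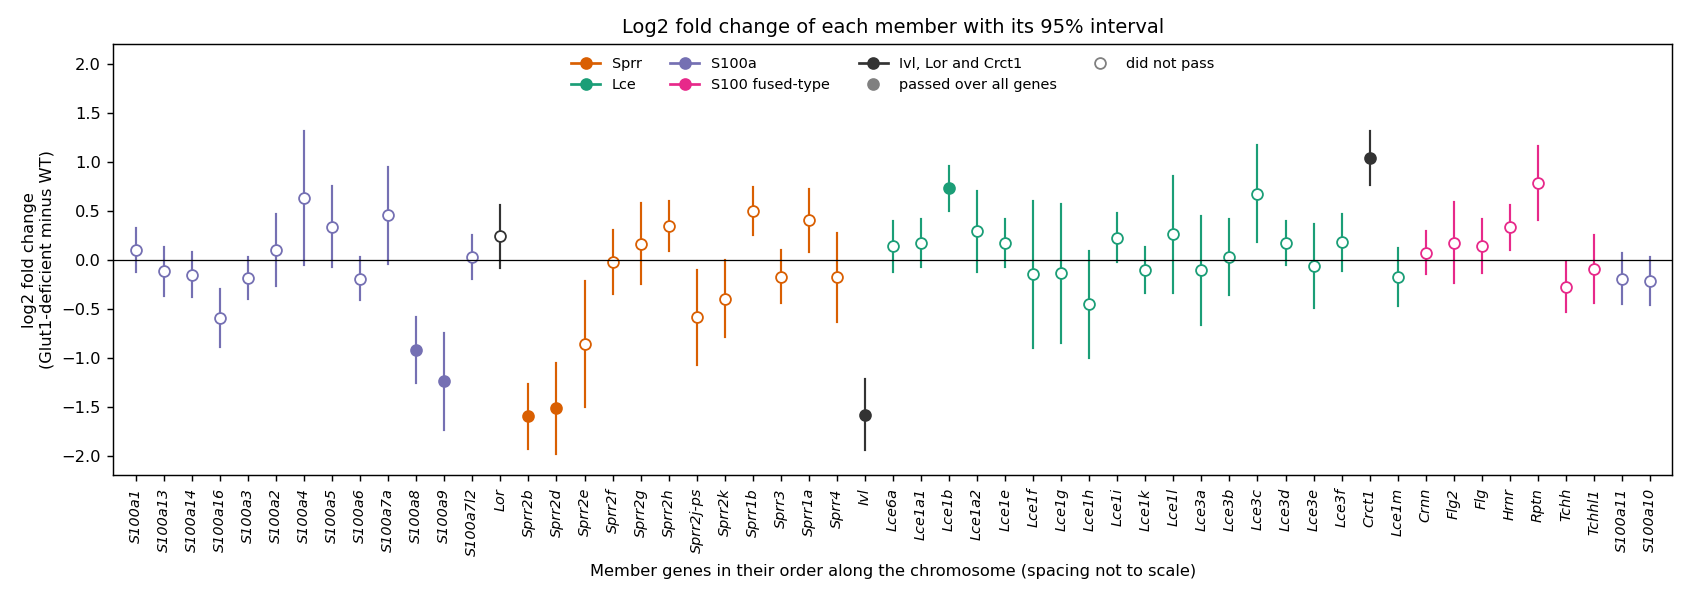
Log2 fold change (Glut1-deficient minus WT) of the 55 members on chromosome 3 in their gene order, with 95% intervals from limma. Filled points passed over all genes. S100a8 and S100a9 stand together, as do Sprr2b and Sprr2d, while Ivl stands between Sprr4 and Lce6a, which did not pass.

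Among the S100a genes the pair encoding calprotectin fell together. S100a8 and S100a9 form a heterodimer that binds calcium, zinc and manganese and is released by stressed keratinocytes and by neutrophils. S100a8 read 6.15 and 6.02 on the Glut1-deficient arrays, against 6.86 and 7.15 on the WT arrays, 1.89-fold lower (95% interval of the log2 fold change -1.25 to -0.58; limma adjusted p = 0.0419). S100a9 read 3.42 and 3.68 on the Glut1-deficient arrays, against 4.55 and 5.03 on the WT arrays, 2.36-fold lower (95% interval of the log2 fold change -1.74 to -0.74; limma adjusted p = 0.0494). Both showed no overlap. S100a9 passed narrowly, and its adjusted p was 0.0522 after quantile normalization over the tested genes and 0.0503 with the dimmer row standing for each gene. Of 8 neutrophil markers 0 passed in limma (1 at unadjusted p under 0.05), 0 were above the median level of all genes, and their summed linear intensities were 110 and 94.3 on the Glut1-deficient arrays against 102 and 97.1 on the WT arrays.

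Of the 16 S100a members, 2 fell, 0 rose and 14 did not pass, beside 1.05% of all genes that fell and 1.79% that rose. There were 10 negative and 6 positive log2 fold changes, with a median of -0.17. S100a16 read 7.37 and 7.62 on the Glut1-deficient arrays, against 8.06 and 8.13 on the WT arrays. It was lower without overlap, by 0.59, and did not pass (limma adjusted p = 0.0729; 0.0101 when the variance followed intensity). S100a6, S100a10 and S100a11, bright on every array at 11.72 to 12.54, had log2 fold changes of -0.19, -0.21 and -0.19 and did not pass. Of these, S100a6 and S100a10 passed when the variance followed intensity (limma adjusted p = 0.0246 and 0.0389). S100a10 pairs with annexin A2, whose gene Anxa2 had a log2 fold change of -0.19. S100a14, S100a13 and S100a3 stood below WT without overlap by 0.15, 0.12 and 0.18. The pseudogene S100a11-ps, at -0.34, is a copy of S100a11, and its row may share probes with that gene. A row annotated to both S100a11-ps and Hif1a, not among the members, had a log2 fold change of -0.01.

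Psoriasin-like S100a7a lay above WT without passing. It read 7.96 and 8.18 on the Glut1-deficient arrays, against 7.37 and 7.87 on the WT arrays, a log2 fold change of 0.45 (95% interval -0.04 to 0.95; limma adjusted p = 0.257). S100a4, known as fibroblast-specific protein although other cells make it too, read 5.93 and 5.16 on the Glut1-deficient arrays against 4.84 and 5.00 on the WT arrays. Both Glut1-deficient values thus lay above both WT values, array 1 by more than array 2. The log2 fold change of 0.63 did not pass (limma adjusted p = 0.256). The 14 fibroblast markers had a median of 1.19 above the WT mean on Glut1-deficient array 1 and 0.65 on array 2. In limma 1 of them, Twist2, rose, and 12 were at unadjusted p under 0.05. Their part in the S100a4 value was not tested. S100a5, next to S100a4, read 3.10 and 2.69 on the Glut1-deficient arrays against 2.62 and 2.51 on the WT arrays. S100a1, S100a2 and S100a7l2 had log2 fold changes of 0.10, 0.10 and 0.03.

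Which of the 2 Glut1-deficient arrays lay further from WT differed by gene. In 32 of the 56 members, and in 5 of the 7 that passed, array 1 lay further from the WT mean than array 2. Over all genes it did so in 57.1%, so the 56 members as a whole were like the other genes in this. Ivl lay 1.75 below the WT mean on array 1 and 1.41 on array 2, and Sprr2b 1.73 and 1.46, whereas Crct1 lay 1.04 and 1.03 above it and S100a8 0.98 below it on array 2 and 0.85 on array 1. In each of these 4 genes both arrays nevertheless stood clear of both WT arrays.

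The genes around the envelope were read from lists chosen with earlier results of these data known, so their counts are descriptions. They stand beside 1.79% of all genes that rose and 1.05% that fell. In limma 4923 of the 22180 genes were at unadjusted p under 0.05. Of 20 transglutaminase and envelope assembly genes, 3 rose and 0 fell, with a median of 0.017. They were the corneodesmosome gene Cdsn (log2 fold change 2.46), the secreted suprabasal gene Sbsn (0.98) and the keratin Krt80 (0.63). Krt80 read 9.43 and 9.42 on the Glut1-deficient arrays, against 8.76 and 8.83 on the WT arrays (limma adjusted p = 0.0397). Tgm1, which crosslinks the envelope, read 6.39 and 6.86 on the Glut1-deficient arrays against 7.06 and 7.09 on the WT arrays and did not pass (log2 fold change -0.45). The cystatin gene Csta1 (-0.67) and cornifelin (Cnfn, 0.98) had the next smallest p and did not pass.

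Of 16 filaggrin-processing and peptidase genes tested, from 18 listed, 2 rose and 0 fell, beside 1.79% and 1.05% of all genes. Their median was 0.0053. Spink5, the inhibitor of epidermal kallikreins, read 8.82 and 8.56 on the Glut1-deficient arrays, against 7.37 and 7.26 on the WT arrays, a 2.59-fold rise (limma adjusted p = 0.0208). Asprv1, the protease that cuts the filaggrin linker, read 10.67 and 10.68 on the Glut1-deficient arrays, against 9.90 and 10.06 on the WT arrays, a 1.62-fold rise (limma adjusted p = 0.0416). Filaggrin itself did not pass, as given above. Padi3, which citrullinates filaggrin and trichohyalin, and Tmprss11d, an airway-type serine protease gene, had differences of -0.63 and -0.80 log2 units that did not pass (limma adjusted p = 0.0539 and 0.0506).

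Regulators of late differentiation held 4 risen and 1 fallen gene of 27 tested from 28 listed, beside 1.79% and 1.05% of all genes. Their median was 0.14. Ovol1, a repressor that favours exit from the cell cycle, read 6.72 and 6.90 on the Glut1-deficient arrays, against 5.87 and 5.74 on the WT arrays, a 2.01-fold rise (limma adjusted p = 0.0272). Prdm1, which encodes Blimp1, rose 1.96-fold, Cebpb 1.89-fold and Klf4, needed for barrier formation, 1.84-fold. Maf, a transcription factor known to act in human epidermal differentiation, read 4.54 and 4.47 on the Glut1-deficient arrays, against 6.13 and 5.95 on the WT arrays, 2.9-fold lower (limma adjusted p = 0.0139). Nfe2l2 (-0.46) and Kdm6b (0.40) did not pass.

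None of 7 AP-1 subunit genes passed in limma (4 at unadjusted p under 0.05). Their median was 0.028, Jun had a log2 fold change of 0.58 and Jund one of 0.53, and Fosl1 of that list was not tested. Among 11 keratins, with a median of -0.041, 0 rose and Krt6b fell, at 5.02 and 5.10 on the Glut1-deficient arrays against 6.55 and 6.14 on the WT arrays (limma adjusted p = 0.0331). The early suprabasal keratins Krt1 and Krt10 had log2 fold changes of 0.34 and -0.04, and Krt78 (0.65) and Krt14 (-0.37) did not pass. None of 12 S100 receptors and partners passed in limma (4 at unadjusted p under 0.05), with a median of -0.041, Tlr4, a receptor for S100a8 and S100a9, at 0.55 and S100pbp at -0.44.

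Of 6 further genes listed with the complex, all on chromosome 3 but in none of its families, 0 rose and 1 fell. Their median was -0.064. Pglyrp3, a peptidoglycan recognition protein that acts on bacteria, was that gene. It read 7.69 and 8.06 on the Glut1-deficient arrays, against 9.17 and 9.10 on the WT arrays, 2.39-fold lower (limma adjusted p = 0.0302). Nup210l and Kprp had log2 fold changes of -0.19 and 0.35 and did not pass. On the same arrays the melanocyte markers had a median log2 fold change of 0.85 with 5 of 9 risen, among them Dct, the fibroblast markers one of 0.93 with 1 of 14 risen, and the keratinocyte markers one of -0.29 with 0 of 11 past the test in limma (8 at unadjusted p under 0.05). The part of these cells in the lists above was not tested.

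**Figure D4:**
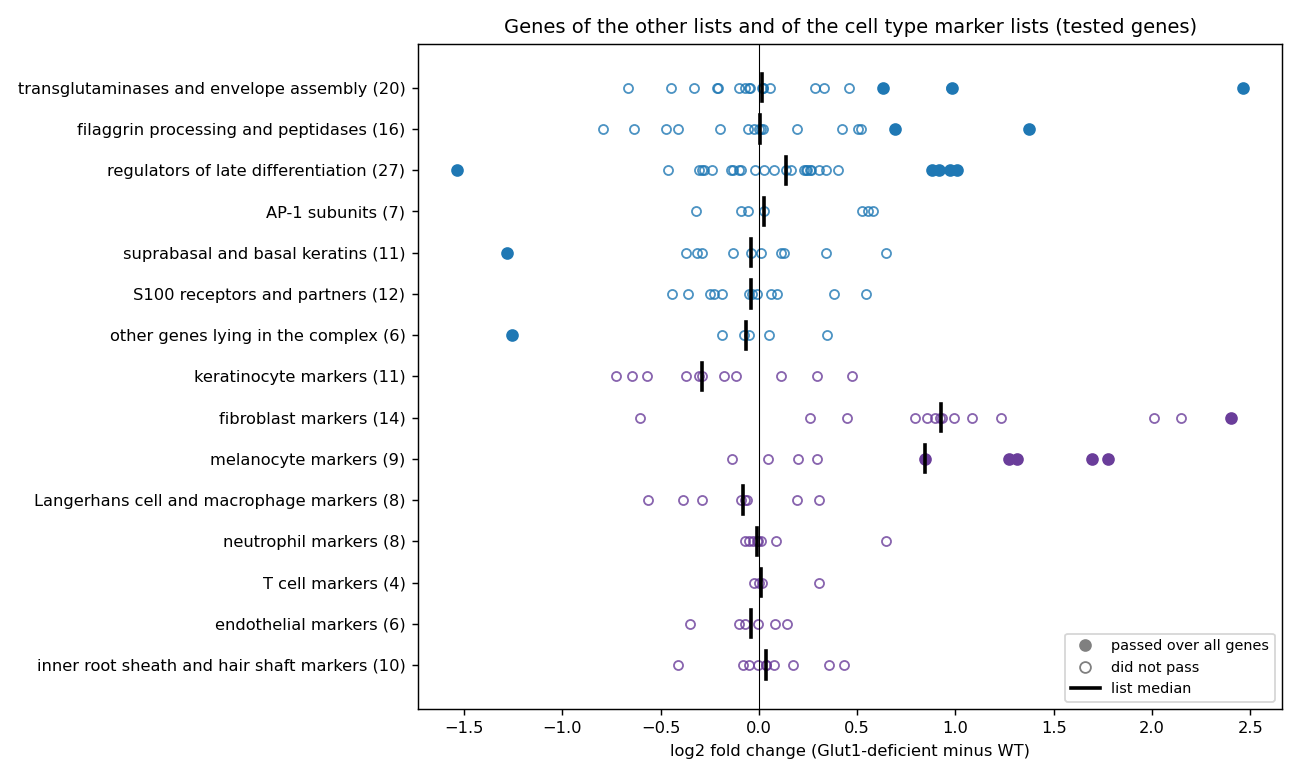
Log2 fold change (Glut1-deficient minus WT) of each tested gene of 7 lists around the complex (blue) and of 8 cell type marker lists (purple), with the number tested in brackets and a bar at each median. Filled points passed over all genes. Medians of the lists around the complex lie between -0.06 and 0.14, and those of the fibroblast and melanocyte markers at 0.93 and 0.85.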

How the data were processed

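RNA from 4 pools of cultured mouse keratinocytes, 2 per genotype, was hybridised to MoGene 2.0 arrays. The deposited values are log2 intensities, 1 per transcript cluster, and the submitters' processing notes name Affymetrix Expression Console and RMA. Software versions were not given in the sources used here, nor was a genome build. RMA equalises the arrays, so changes are relative to other genes, and the log2 scale was read from the range of 1.33 to 13.4. Of 41345 rows, 23521 carry exactly 1 symbol in the platform annotation. The row with the highest mean stood for a gene with several rows, which left 22180 genes; no dim gene was removed. Genotypes were compared with limma 3.58.1 under R 4.3.3 (lmFit, eBayes, 2 residual degrees of freedom, a prior worth 2.95), two-sided, Benjamini-Hochberg adjusted over all genes at 0.05. With 2 against 2 arrays an exact two-sided permutation p cannot fall below 0.333. Arrays are pools called biological replicates, so p-values rest on the spread among these pools, which may be technical. The replicate numbers are not stated to pair arrays across genotypes, so no block was used. Deviations of same-numbered arrays from their genotype means had r = -0.025. With 2 arrays per genotype this value must be the same for both numbers. The fit was tested on simulated data. The members and lists were chosen with earlier results of these data known; members that passed, the genes the rule names singly and the largest changes of each family were given in full, with up to 5 passing and 2 further genes of other lists. A gene was called dim when its mean lay below 4.76, the median over genes. Promoter windows are RefSeq sequences of GRCm38.p6, aligned with Biopython 1.88; figures used matplotlib 3.10.9. Alternatives were intensity trends, 3 normalizations, a dim filter, other rows per gene, each array left out, the replicate block, a laxer threshold and an unmoderated statistic.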

Additional observations from a re-analysis of the deposited data

How the results depend on the processing

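All 7 members that passed kept their sign under each alternative that tested them (S100a9 and Lce1b were not tested among genes above the median level), and 42 of the 56 members did so under those that change the fold change. Against 2 members risen, 5 fallen, 397 genes risen and 233 fallen, an intensity trend gave 6, 9, 1344 and 1327, and with robust estimation 6, 9, 1368 and 1361. Adjusted p under 0.1 gave 4 members risen (6 fallen), 1024 genes risen and 831 fallen. Testing genes above the median level gave 3 and 5 of 25 members, with 1214 genes risen and 1113 fallen. These were 32% of the members and 21% of the genes tested at that level. Testing all rows separately, and the unmoderated statistic, gave 0 calls for members and genes in either direction (16 and 12 members, and 3887 and 3646 of the 22180 genes, at unadjusted p under 0.05). The replicate block, for numbers not stated to pair the arrays, left 0 members, with 32 genes risen and 5 fallen. In limma it gave 19 members and 4335 genes at unadjusted p under 0.05. Without any single array, counts were 0 to 0 for members and genes. Among genes above the median level, where fewer members were tested, the median of Sprr was -0.59 against -0.18 as reported, that of all members -0.18 against 0.0015, and that of Ivl, Lor and Crct1 -0.27 against 0.24. The medians of all members and of Ivl, Lor and Crct1 thus turned sign. The Lce median was 0.11 after quantile normalization and 0.091 to 0.14 with an array left out, and that over all members then ran from -0.025 to 0.067. Among the members whose sign did not hold, all of which missed the threshold, were the singly named genes Flg2 (-0.040 without Glut1-deficient array 2, in a range up to 0.39 with an array left out) and Tchhl1 (0.0051 without Glut1-deficient array 1 and 0.034 without WT array 2, in a range down to -0.22). The cause was not tested.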
